A study of Mus musculus with 12 samples.

Results

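Il1f9 and Il20ra are 2 of the 16298 gene symbols counted in glomeruli of mice with a podocyte-specific DACH1 knockout and of control mice. Both were chosen by their knockout-against-control differences in these same libraries, so the knockout effects are given as a description without a test. Il1f9 encodes the cytokine IL-36 gamma, and Il20ra encodes a subunit of a cytokine receptor. Il1f9 and Il20ra were listed in all 12 libraries, and both passed the filter on low counts in every comparison.

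The libraries were total RNA from glomeruli of C57BL/6 mice, isolated by perfusing magnetic beads through the heart, with 3 different mice in each of 4 groups. The baseline groups were controls and podocyte-specific DACH1 knockouts at 10 weeks of age. The STZ groups were controls and knockouts given streptozotocin, a toxin of insulin-producing cells, at 50 µg per g per day for 5 days, with RNA taken 10 days later; their age was not given in the sources used here. The titles call the baseline controls Ctrl and the STZ controls hetN, without saying what alleles either carried, and the labels name no Cre driver. The comparison of genotypes asked which transcripts differed with the loss of Dach1, a transcriptional regulator of podocytes, before and after the diabetic stimulus.

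IL-36 gamma is an IL-1 family cytokine best known from skin and other barrier epithelia. It is made as a precursor, is activated by proteases such as cathepsin S, and signals through the receptor IL1RL2 with the shared co-receptor IL1RAP. IL-20RA pairs with IL-20RB to bind IL-19, IL-20 and IL-24, and the pair signals through JAK kinases and STAT3. Both axes are best known from epithelial cells, in which they induce antimicrobial peptides and chemokines.

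On GRCm38, Il1f9 lies at chr2:24186476-24193568 on the plus strand, with 5 exon blocks, 1648 exonic bases and no overlapping gene in GENCODE. Il20ra lies at chr10:19712570-19760053 on the plus strand, with 9 exon blocks and 2428 exonic bases. Gm33332, annotated on the opposite strand, lies inside the first intron of Il20ra and shares no exonic base with it. Because the members moved together between genotypes, the 250 bases before the start of each gene in a table of RefSeq promoters were searched for 4 motifs on both strands; capitals mark the only matches. For Il1f9 the whole window is shown. The Il20ra window, chr10:19712337-19712586, lies inside the RefSeq gene span, which begins at 19711673, and reaches past the GENCODE start, so only the 30 bases around its match are shown.
Il1f9, chr2:24186226-24186475, plus strand: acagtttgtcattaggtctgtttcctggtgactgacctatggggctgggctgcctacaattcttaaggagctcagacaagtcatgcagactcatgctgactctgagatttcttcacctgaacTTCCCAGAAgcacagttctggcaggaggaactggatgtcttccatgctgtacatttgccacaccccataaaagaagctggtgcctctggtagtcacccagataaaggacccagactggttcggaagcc
Il20ra, chr10:19712411-19712440, plus strand: actctgctgtacTGAGTCAgagctcatcgg
The capitals in Il1f9 match the STAT motif TTCNNNGAA and begin 128 bases before that start. The capitals in Il20ra match the AP-1 motif TGANTCA and begin 164 bases before the start in that table. A STAT match was present in 7.02% and an AP-1 match in 6.75% of 32851 RefSeq promoter windows of this length. Neither window held the forkhead motif TGTTTAC, found in 3.17% of windows, or the homeodomain motif TAATTA, found in 4.84%. The windows were 50.0% GC for Il1f9 and 55.2% GC for Il20ra, against a median of 52.4% over all windows. These matches describe letters only, and no binding was measured here.

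Total counts per library were 22636456.5 to 24925846.5 at baseline, with 13480 genes listed, and 66134170 to 78631380 after STZ, with 16293 listed. Because depth and the listing of genes moved with the arm, the effect of STZ cannot be told apart from them. Dach1, the targeted gene, was lower in every knockout library than in every control library: 47.2 to 59.3 CPM (counts relative to the size of the library) against 105.8 to 187.9 at baseline, and 55.8 to 67.0 against 145.4 to 182.5 after STZ. The summed level of 8 podocyte markers was 18150 to 26880 CPM at baseline and 28720 to 35350 CPM after STZ. The summed level of 10 proximal tubule markers ranged from 995 to 20270 CPM over the libraries, highest in knockout replicate 3 at baseline. Replicate 1 of the STZ controls stood apart. Its macrophage marker sum was 622 CPM against 93.2 to 221 CPM in the other 5 STZ libraries, and its neutrophil marker sum was 78.1 CPM against 5.58 to 11.7. Of 8 neutrophil markers, 3 were listed in both arms and summed: S100a8, S100a9 and Csf3r. The fitted effects, summed-count ratios and podocyte-scaled folds that rest on that library are given with and without it.

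Il1f9 was low in control glomeruli and about 3 times or more higher in knockout glomeruli, in both arms. Its raw counts in the baseline controls were 62, 75 and 56 reads, or 2.69, 2.89 and 2.32 CPM, a mean of 2.63 ± 0.290 (SD, n = 3). In the baseline knockouts they were 222, 206 and 228 reads, or 9.67, 8.67 and 10.3 CPM, a mean of 9.56 ± 0.834 (SD, n = 3). The 3 knockout libraries all lay above the 3 controls, and the lowest knockout level was 3.0 times the highest control level.

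After STZ the Il1f9 counts in controls were 335, 223 and 287 reads, or 4.69, 2.95 and 4.18 CPM, a mean of 3.94 ± 0.896 (SD, n = 3), or 3.56 without replicate 1. The STZ knockouts had 875, 944 and 1013 reads, or 11.94, 11.98 and 13.94 CPM, a mean of 12.6 ± 1.14 (SD, n = 3). Again no knockout library overlapped a control, with the lowest knockout 2.54 times the highest control. Rank was taken by CPM per kilobase of exon, among the 13235 genes with a known length that were listed in both arms. In the baseline controls 15.5% to 18.8% of these genes lay below Il1f9. In the STZ knockouts 54.2% to 59.2% did, so its rank moved from the low end to the middle.

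Il20ra was closer to the floor in controls. Its raw counts in the baseline controls were 11, 23 and 20 reads, or 0.477, 0.886 and 0.828 CPM, a mean of 0.730 ± 0.222 (SD, n = 3). In the baseline knockouts they were 168, 170 and 122 reads, or 7.32, 7.16 and 5.53 CPM, a mean of 6.67 ± 0.992 (SD, n = 3). The genotypes did not overlap, and the lowest knockout was 6.23 times the highest control. By CPM per kilobase, only 0.325% to 1.25% of the same 13235 genes lay below Il20ra in the baseline controls, against 23.3% or more in the baseline knockouts.

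After STZ the Il20ra counts in controls were 13, 95 and 108 reads, or 0.182, 1.26 and 1.57 CPM, a mean of 1.00 ± 0.729 (SD, n = 3), or 1.41 without replicate 1. The low value came from replicate 1, the library with the high macrophage and neutrophil marker sums. That library also had the lowest proximal tubule marker sum of the STZ libraries, 1423 CPM. Whether any of these sums goes together with the low value was not tested. The STZ knockouts had 1592, 760 and 1265 reads, or 21.7, 9.64 and 17.4 CPM, a mean of 16.3 ± 6.12 (SD, n = 3). Every knockout library lay above every control, with the lowest knockout 6.13 times the highest control.

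**Figure D1:**
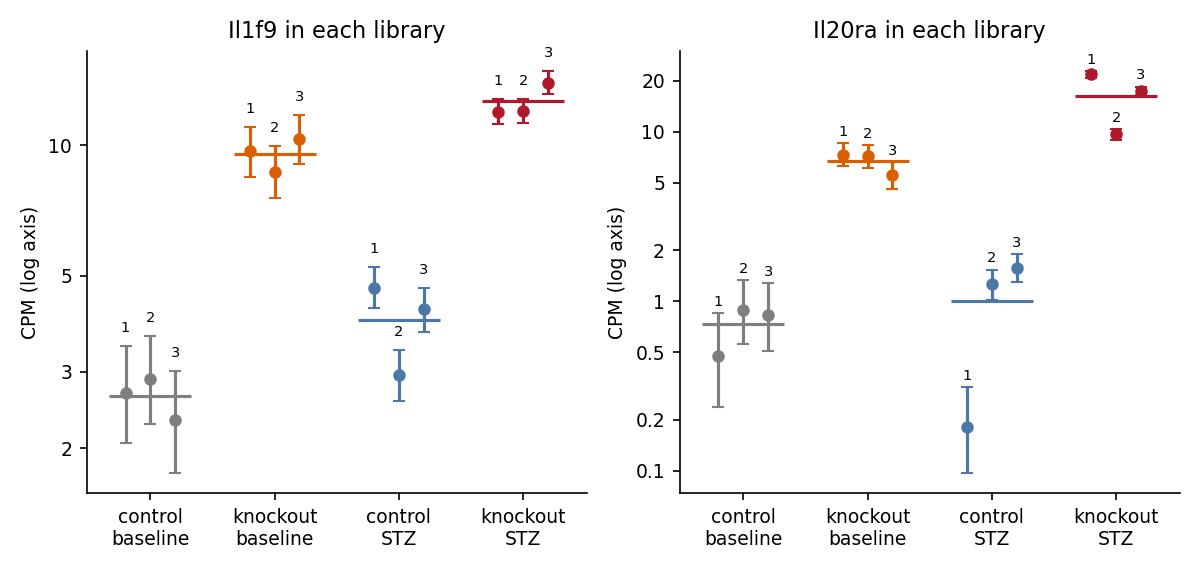
Level of Il1f9 (left) and Il20ra (right) in each library, in CPM on a log axis, with replicate numbers, 95% exact Poisson intervals of the count as error bars and the group mean as a horizontal line. The knockout libraries sit above the control libraries in both arms; the Il20ra value of STZ control replicate 1, 0.182 CPM, is the lowest of the 12.

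Counting noise was a large part of the spread in the baseline controls and a small part after STZ. All intervals given here are 95% and cover counting error only. For Il1f9 in the baseline controls the coefficient of variation was 11.0%, against 12.5% for counting alone, so the 3 mice differed by no more than counting allows. For Il20ra in the same libraries it was 30.4% against 23.6%. In the baseline knockouts the values were 8.72% against 6.76% for Il1f9 and 14.9% against 8.08% for Il20ra. Among the STZ controls the Il20ra coefficient of variation was 72.6% against 11.8% for counting. The exact Poisson interval of the 13 reads in replicate 1 was 6.92 to 22.2 reads, below the 76.9 to 116 reads around the 95 of replicate 2, at similar depth. In the STZ knockouts the Il20ra coefficient of variation was 37.7% against 2.88% for counting, with the highest library 2.25 times the lowest. Il1f9 varied less between the same mice, at 9.06% against 3.25%.

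The fitted knockout effect on Il1f9 was a log2 fold change of 1.86 (SE 0.154) at baseline and 1.68 (SE 0.207) after STZ. From summed counts the ratio of knockout to control was 3.62 at baseline (exact binomial interval 3.08 to 4.27, from 656 and 193 reads) and 3.22 after STZ (2.98 to 3.48, from 2832 and 845 reads). The intervals of the 2 arms overlap. Without STZ control replicate 1 the fitted effect after STZ was 1.83 and the ratio 3.56 (3.24 to 3.92). Leaving out 1 library at a time gave log2 fold changes of 1.77 to 1.93 at baseline and 1.51 to 1.83 after STZ.

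For Il20ra the fitted knockout effect was 3.18 (SE 0.279) on the log2 scale at baseline and 4.02 (SE 0.714) after STZ. The summed-count ratio was 9.06 at baseline (6.82 to 12.2, from 460 and 54 reads) and 16.1 after STZ (14.0 to 18.5, from 3617 and 216 reads). These intervals do not overlap, but counting intervals leave out the spread between mice, which was the larger term after STZ. Without STZ control replicate 1 the fitted effect after STZ was 3.52 and the ratio 11.4 (9.93 to 13.2), an interval that overlaps the one at baseline. Leave-one-out values were 2.95 to 3.34 at baseline and 3.52 to 4.48 after STZ.

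With edgeR's quasi-likelihood test and an adjusted p under 0.05, 2 of the 2 members were called at baseline, where 0.23% of 13475 genes were called. After STZ 1 of 2 was called, Il1f9, where 1.07% of 16291 genes were called. Every knockout library lay above every control for both members in both arms, against 4.98% of genes at baseline and 8.62% after STZ. Since the members were selected on these contrasts, nothing is read from these counts.

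The calls themselves turned on single libraries and settings. Over 13 alternative settings of the baseline comparison, Il1f9 was called in 7 and Il20ra in 6, and after STZ in 7 and 4. With a sex term neither member was called in either arm. Of the 6 leave-one-out fits at baseline, only the one without knockout replicate 1 kept the calls of the members. After STZ only the one without control replicate 1 called them, Il20ra included, which the full set did not call. The fold changes stayed positive in all of these settings.

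STZ raised neither gene past the threshold, in either genotype. In controls the Il1f9 effect of STZ was 0.55 (SE 0.237) on the log2 scale, which edgeR's quasi-likelihood test put at an adjusted p of 0.403. Without control replicate 1 it was 0.39. In knockouts it was 0.38 (SE 0.135, edgeR adjusted p = 0.283). Summed over mice, Il1f9 counts gave an STZ-to-baseline ratio of 1.49 for controls (1.27 to 1.75; 1.34 without replicate 1) and of 1.32 for knockouts (1.21 to 1.44). In knockouts the 3 STZ libraries, at 11.9 to 13.9 CPM, all lay above the 3 baseline libraries, at 8.67 to 10.3 CPM.

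For Il20ra, control mice showed an STZ effect of 0.41 (SE 0.738, edgeR adjusted p = 0.851), and knockout mice one of 1.25 (SE 0.306, edgeR adjusted p = 0.155). Without control replicate 1 the effect in controls was 0.90, and over the leave-one-out fits it ran from -0.05 to 0.90, so its sign was not fixed. The summed Il20ra counts gave a ratio of 1.36 for controls, with an interval of 1.0 to 1.86 (1.91 without replicate 1), and of 2.41 for knockouts (2.18 to 2.66). In knockouts the STZ libraries again lay above the baseline libraries, with 9.64 CPM the lowest of the former and 7.32 CPM the highest of the latter.

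In controls 0 of 2 members were called by edgeR, 0 had an unadjusted p under 0.05 and 0 were called by DESeq2, where edgeR called 0.23% of 13473 genes and DESeq2 3.05%. In knockouts edgeR called 0 of 2 where it called 0.178% of genes, although both had an unadjusted p under 0.05, 0.0293 for Il1f9 and 0.00541 for Il20ra, as did 14.7% of genes. DESeq2, which called 5.97% of genes here, called 1 of them, Il20ra, with an adjusted p of 0.00635, against up to 0.534 over the other alternatives. Both members had every STZ knockout above every baseline knockout, as did 11.2% of genes. In controls 9.49% of genes had every STZ library above every baseline library; Il20ra did not, and Il1f9 turned on the scaling. With factors from all 12 libraries its lowest STZ control, 2.95 CPM, lay just above its highest baseline control, 2.89 CPM. With factors from the 6 control libraries alone these were 2.938 and 2.946 CPM, and the groups overlapped.

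The difference between the arms in the knockout effect was tested as an interaction. It was -0.18 (SE 0.25) for Il1f9 and 0.83 (SE 0.837) for Il20ra on the log2 scale, and the adjusted p of both was 0.975 (edgeR). Neither gene had an unadjusted p under 0.05 or was called by DESeq2; edgeR called 0.00742% of 13475 genes and DESeq2 0.23%. Without STZ control replicate 1 the interaction was -0.035 for Il1f9 and 0.34 for Il20ra. The larger Il20ra effect after STZ was thus not told apart from the spread between mice. The controls of the arms carry different titles, Ctrl and hetN, so a difference in the kind of control cannot be told apart from the arm.

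**Figure D2:**
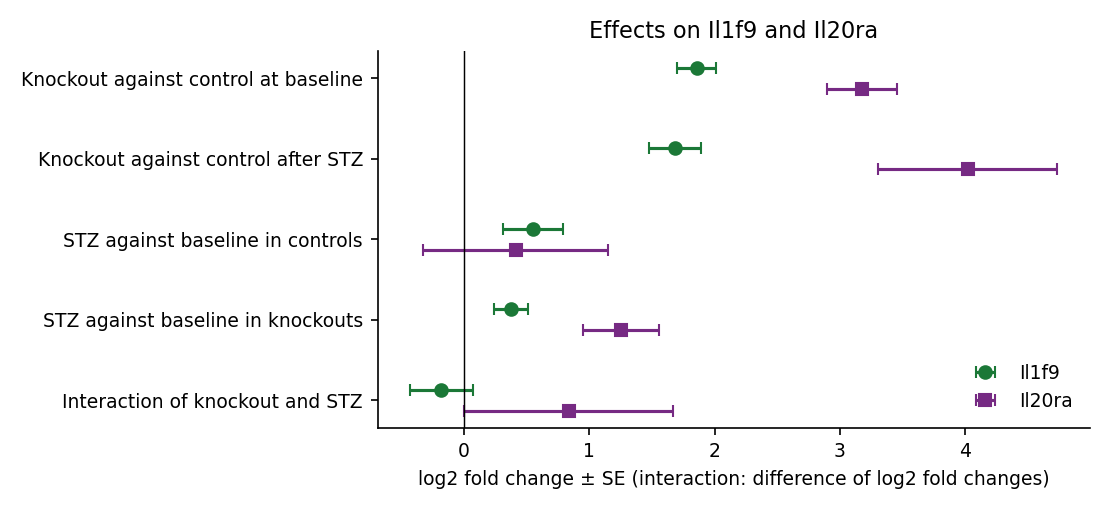
Log2 fold change of Il1f9 and Il20ra in each comparison, as points with bars of 1 standard error; for the interaction the axis is the difference of log2 fold changes. The knockout effects lie well above 0, from 1.68 to 4.02, and the Il20ra interaction of 0.83 has a standard error as large as itself.

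The members did not keep a fixed proportion to each other. Per kilobase of exon, the ratio of the Il20ra level to the Il1f9 level was 0.12, 0.208 and 0.242 in the baseline controls and 0.514, 0.56 and 0.363 in the baseline knockouts. After STZ the control libraries gave ratios of 0.0263, 0.289 and 0.255, and the knockout libraries 1.24, 0.546 and 0.848. The ratio was higher in every knockout library than in every control library of its arm. Il20ra exceeded Il1f9 per kilobase in 1 library, STZ knockout replicate 1.

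In bulk glomeruli, fewer cells of a type and less RNA per cell cannot be told apart. Podocyte marker sums overlapped between genotypes in both arms, at 19680 to 26880 CPM in controls and 18150 to 22300 in knockouts at baseline, and 28720 to 35350 against 30300 to 31680 after STZ. Divided by that sum, the Il1f9 level was 4.19 times higher in knockouts at baseline and 3.25 times after STZ, and the Il20ra level was 10.3 and 16.3 times higher. Without STZ control replicate 1 the folds after STZ were 3.54 and 11.5. Of 10 keratinocyte and urothelium markers, 1 (Krt10) was listed in both arms, and the sum of that list was 3.83 to 6.98 CPM. Sums of parietal epithelium markers, another epithelial cell of the glomerulus, overlapped too: 89.6 to 182 CPM in controls and 81.5 to 151 in knockouts at baseline, and 110.1 to 150.1 against 123.9 to 149 after STZ. Knockout replicate 3 at baseline, with the highest proximal tubule sum, had the lowest Il20ra and the highest Il1f9 level of its group. In both STZ groups Il20ra, but not Il1f9, followed the order of the tubule sums. These were 1423, 3016 and 8574 CPM in STZ control replicates 1 to 3, and 8486, 1816 and 2143 CPM in the STZ knockouts. With a proximal tubule covariate the Il20ra knockout effect after STZ was 4.23 (SE 0.512), and edgeR called it. Beyond that covariate, the part of tubule RNA in these levels was not tested.

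**Figure D3:**
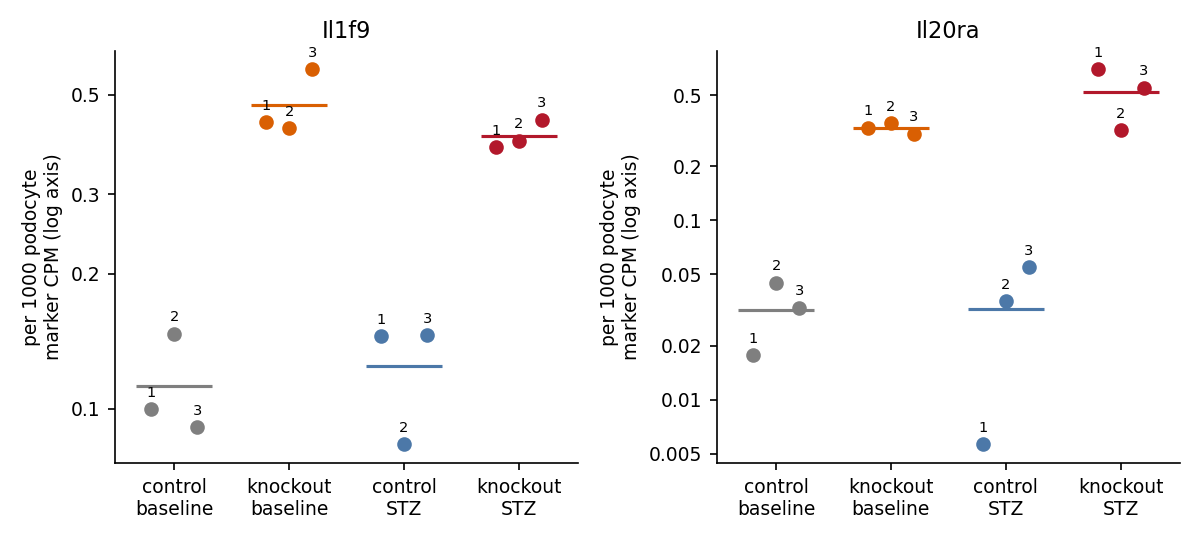
Level of each gene per 1000 CPM of summed podocyte markers, on a log axis, one point per library with its replicate number and a line at the group mean. All knockout libraries lie above the controls of their arm, from 0.382 against at most 0.147 for Il1f9.

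Of the partners through which the 2 proteins act, none was called between genotypes by edgeR or DESeq2. Il1rl2, the IL-36 receptor, averaged 6.74 ± 0.878 CPM in baseline controls and 6.36 ± 1.38 in baseline knockouts, then 5.29 ± 0.485 and 5.96 ± 1.35 after STZ (SD, n = 3). Il1rap, its co-receptor, averaged 10.6 to 11.9 CPM over the 4 groups. Of the related ligand and antagonist genes Il1f5, Il1f6, Il1f8 and Il1f10, none was among the listed genes.

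On the Il20ra side, Il20rb, its partner subunit, was listed after STZ only, at 2.05 ± 1.12 CPM in controls and 1.31 ± 0.245 in knockouts (SD, n = 3). Il24 was the 1 measured gene of the 9 IL-10 and IL-20 family ligands, at 2.96 ± 0.355 CPM in STZ controls and 2.91 ± 0.787 in STZ knockouts. Il19 and Il20, which encode the other ligands of the pair, were not among the listed genes. Il22ra1, which also pairs with IL-20RB, averaged 2.08 ± 1.18 and 1.61 ± 0.521 CPM after STZ. Il10rb, a broadly expressed subunit of the same class, averaged 107 ± 3.94 CPM in baseline controls and 102 ± 13.5 in baseline knockouts. Per kilobase after STZ, the Il20ra level in knockouts, 6.7 CPM, lay above that of Il20rb, 0.311 CPM, and below that of Il10rb, 21.8 CPM.

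**Figure D4:**
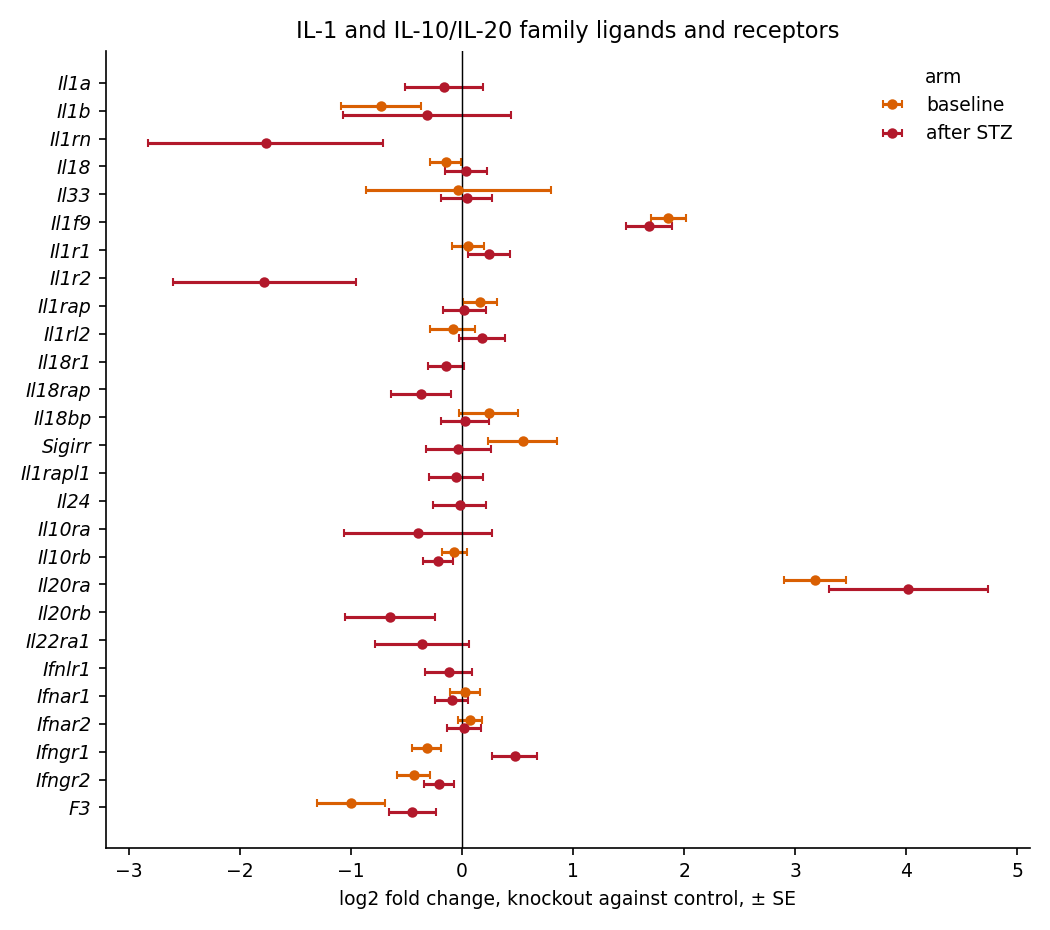
Log2 fold change with its standard error for the members and for the listed ligand and receptor relatives, in the knockout comparisons at baseline and after STZ. Il1f9 and Il20ra, at 1.68 to 4.02, were chosen for this effect, and edgeR did not call Il20ra after STZ. None of the relatives was called, Il1rl2, Il1rap, Il20rb and Il24 included. After STZ Il1r2 was at -1.78 and Il1rn at -1.77, both with their highest level in STZ control replicate 1.

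Among 116 other symbols of these pathways, from ligands to signalling genes and targets, 67 were measured in both arms and 84 after STZ. At baseline edgeR and DESeq2 each called 0 of 67 between genotypes, and 6 had an unadjusted p under 0.05, as did 6.92% of all genes; DESeq2 called 1.64% of all genes. After STZ 1 of 84 was called by both tools, Vegfa, the podocyte-derived endothelial growth factor and a STAT3 target; 5 had an unadjusted p under 0.05, against 9.08% of all genes, and DESeq2 called 3.46% of all genes. Vegfa fell by 0.89 on the log2 scale (adjusted p = 0.0240, edgeR), from 438, 450 and 395 CPM in controls to 229, 234 and 225 CPM in knockouts, with no overlap. The median log2 fold change of the 67 was -0.07 at baseline against 0.01 for all genes, and that of the 84 was -0.16 after STZ against -0.02.

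With STZ, edgeR called 0 of 67 in controls and 0 of 67 in knockouts, with 11 and 13 at an unadjusted p under 0.05, against 12.6% and 14.7% of all genes. DESeq2 called 5, all higher, in controls, where it called 3.05% of all genes, and 9, all higher, in knockouts, where it called 5.97%. Il1b, an inflammatory ligand, was among both, with edgeR log2 fold changes of 2.26 (adjusted p = 0.182) and 2.67 (adjusted p = 0.222). Il18, an epithelial ligand of the same family, was among both too, at 0.69 (adjusted p = 0.192) and 0.87 (adjusted p = 0.140). Of the 5 genes called in controls, Il1b, Tnfaip3 and Ptpn6 were highest in STZ control replicate 1, at 14.5, 67.9 and 22.8 CPM. The remaining STZ controls had 4.79 and 7.47 CPM of Il1b, 20.5 and 26.8 of Tnfaip3, and 9.92 and 12.4 of Ptpn6. Il18 and Vegfa were not highest in that replicate. For the interaction, both tools called 0 of 67, with 4 at an unadjusted p under 0.05, against 3.68% of all genes.

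No listed gene beside the members on the chromosome passed the threshold between genotypes in edgeR. Of 10 protein-coding genes within 500 kb of Il1f9, 4 were listed at baseline, with log2 fold changes of 0.02 to 0.16 (smallest adjusted p = 0.888, edgeR). After STZ 5 were listed, and the largest difference was that of Il1rn, an IL-1 receptor antagonist, at -1.77 (adjusted p = 0.761, edgeR). That difference rested on STZ control replicate 1, at 12.1 CPM. The remaining STZ controls had 1.63 and 1.21 CPM, against a mean of 1.45 CPM in the STZ knockouts. Of 8 genes near Il20ra, 5 were listed in each arm, with a smallest edgeR adjusted p of 0.713 at baseline and 0.558 after STZ. Hnmt, the nearest listed gene on the left of Il1f9, had knockout effects of 0.02 and -0.04 on the log2 scale. Ifngr1, which encodes an interferon gamma receptor subunit and lies 102 kb from Il20ra, had knockout effects of -0.32 at baseline and 0.48 after STZ. The neighbours were chosen after the members' values had been seen.

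**Figure D5:**
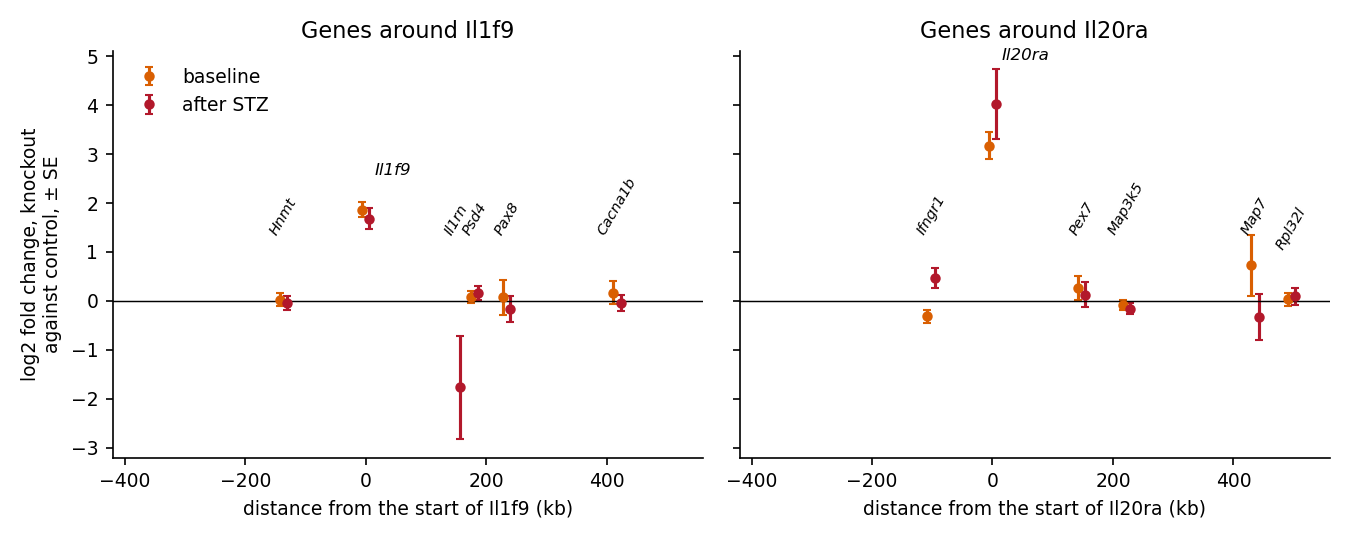
Knockout effect (log2 fold change with its standard error) of each listed gene within 500 kb of Il1f9 or Il20ra against distance in kb, at baseline and after STZ. The members, at distance 0, lie above every listed neighbour.

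The genes whose levels followed the members most closely over the 12 libraries were knockout-high genes as well. Predicted genes and clone names were left out of this ranking. For Il1f9 the 5 highest Pearson correlations of log2 CPM were with Hpgds (r = 0.983), Ptgfr (0.968), Gabrb1 (0.954), Lpcat4 (0.953) and Adamtsl1 (0.953). Hpgds encodes a prostaglandin D synthase and Ptgfr the prostaglandin F receptor. For Il20ra they were Steap2 (0.961), Mboat2 (0.953), Cyp27a1 (0.952), Arhgap20 (0.951) and Efemp1 (0.948). Cyp27a1 encodes a sterol hydroxylase and Efemp1 a matrix glycoprotein. The members correlated with each other at 0.869 and with Dach1 at -0.889 (Il1f9) and -0.834 (Il20ra). These values describe 12 libraries that fall apart by genotype, and carry no test.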

How the data were processed

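Gene counts from 12 RNA libraries of mouse glomeruli were analysed, 3 mice in each of 4 groups assigned from the sample labels. The values are estimated counts deposited by the authors, 1 table for the baseline arm and 1 for the STZ arm; 10.5% to 11.5% of values per library end in a fraction and 18 cells are blank. The values were rounded to whole numbers, ties upward, and blanks set to 0. BWA and the mm10 build are named, per the submitters' processing notes; no counting tool, annotation or strand setting is given in the sources used here, so antisense reads could not be separated. The members and lists were chosen with earlier results of these data known.

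Each comparison was fitted across all genes in edgeR 4.0.16 (R 4.3.3; filterByExpr, TMM, quasi-likelihood test), with Benjamini-Hochberg adjustment and calls at an adjusted p under 0.05. The knockout fits used 6 libraries of 1 arm, the STZ fits 6 libraries of 1 genotype, and the interaction all 12. CPM values are on the scale of the 12-library TMM factors. p-values weigh a difference between groups of 3 mice against the spread between mice within groups, estimated with information from all genes. No library was a duplicate of another in its group: replicate pairs of a group differed by chi-square per degree of freedom of 42.0 to 352.0. Pairs from different groups were not compared. Alternatives were RLE factors, no filter on low counts, a proximal tubule covariate, a sex term, a 12-library fit, DESeq2 1.42.0, ties rounded down, ratios of summed counts and leaving out each library. The sex term was used in the knockout fits only, with sex inferred from whether Xist exceeded Ddx3y in a library. Scripts were tested on simulated data.

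Gene names follow this rule: the members and Dach1, listed ligand and receptor relatives, called pathway genes, at most 2 genes of smallest p per list and comparison, and the 5 most correlated genes per member. Predicted genes and clone names were skipped among the correlated genes. Coordinates are from GENCODE M21 and promoter sequences from RefSeq GRCm38.p6; both members matched by symbol. Protein sequences were not used here.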

Additional observations from a re-analysis of the deposited data

How the results depend on the processing

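The direction of the knockout effect held for both members in both arms under every alternative run. The Il20ra effect of STZ in controls reversed to -0.23 with a proximal tubule covariate and to -0.046 without STZ control replicate 3, with leave-one-out values from -0.046 to 0.90. The Il20ra effect of STZ in knockouts passed the threshold in DESeq2 alone, at 1.25. Numbers of called genes moved more. At baseline the 31 calls between genotypes became 55 with the tubule covariate, 10 with a sex term, 79 in the 12-library fit and 220 in DESeq2, and 4 to 51 when 1 library was left out. After STZ the 175 calls became 337, 61, 289 and 564 under the same settings, and 40 to 109 when 1 library was left out. For STZ in controls the 31 calls became 55 with the covariate, 69 in the 12-library fit and 410 in DESeq2, and 4 to 12 in leave-one-out fits. For STZ in knockouts the 24 calls became 307, 252 and 804, and 1 to 10 in leave-one-out fits. The interaction had 1 call, and 2 with RLE factors, 0 with the covariate, 31 in DESeq2 and 0 to 2 in leave-one-out fits; leave-one-out fits have fewer samples, and the cause of the other changes was not tested. No paired analysis was possible because the labels give no replicate number shared between groups. Depth limits Il20ra in baseline controls, where 11 to 23 reads per library stand behind each value.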

Other observations

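Replicate 1 of the STZ controls, which had the lowest Il20ra level, also held the most transcripts of several inflammatory genes. Ctss, the protease cathepsin S, was at 98.7 CPM there. The S100a8 and S100a9 levels, genes of a neutrophil protein pair already counted in the neutrophil marker sum, were 24.4 and 40.2 CPM. In the STZ knockouts the same pair averaged 1.56 ± 0.427 and 2.31 ± 0.478 CPM (SD, n = 3). The Il1f9 level of STZ control replicate 1, 4.69 CPM, was the highest of the 6 control libraries.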
